A study of Mus musculus with 6 samples.

Results

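Cathepsins are the proteases of endosomes and lysosomes, and 10 of their genes were followed in mouse Th9 cells with and without the transcription factor IRF1: Ctse, Ctss, Ctsl, Ctsb, Ctsc, Ctsd, Ctsz, Ctsw, Ctsa and Ctsh. They are 10 of the 41388 genes in the table, and 9 of them reached the level needed for a fit. The set was chosen by measured values of this same comparison, in which Ctse and Ctss stood out, so the values of the 10 genes are given as a description, without p-values of their own, and nothing is supported with them.

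Th9 cells are CD4+ helper T cells that make IL-9. The study asked how IRF1, which IFN-γ induces, alters their gene expression, and compared 3 WT with 3 IRF1-deficient cultures by RNA-Seq. All mice had a C57BL/6 background and were, per the study's methods, between 8 and 12 weeks old. Naive CD4+ T cells from spleen and lymph nodes were kept for 2 days with IL-2, IL-4, TGF-β and IFN-γ at 5 ng per ml. Per the study's general culture method, the cells were primed with antibodies to CD3 and CD28. That method also lists an antibody to mouse IFN-γ, and the IFN-γ added was from rat. IFN-γ was present in all 6 cultures, so the comparison holds no cells without the cytokine. The deficiency was present in the whole animal, and the T cells had therefore also developed without IRF1.

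Most cathepsins are made as inactive precursors, are marked with mannose 6-phosphate in the Golgi, and are activated in acidic compartments. They fall into cysteine proteases (the products of Ctss, Ctsl, Ctsb, Ctsc, Ctsh, Ctsz and Ctsw), aspartic proteases (Ctse and Ctsd) and a serine carboxypeptidase (Ctsa). In antigen-presenting cells they cut antigens and the invariant chain that guards MHC class II molecules, in cytotoxic lymphocytes cathepsin C activates granzymes, and in all cells they degrade protein that reaches the lysosome.

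Values are normalized counts, that is, gene reads scaled by the library's size factor, and a difference is the log2 of IRF1-deficient over WT after 1 was added to each value, with its standard error (SE) from limma. The libraries held between 5639788 and 13348230 reads on genes, and 3 reads were worth between 1.84 and 4.16 normalized counts. Irf1 itself ranged from 2660 to 2968 in WT and from 1476 to 1780 in IRF1-deficient libraries, so reads on the targeted gene remained. Ddx3y, a Y-linked gene, was at 849 and 939 in WT replicates 1 and 2 and at most at 4.16 in the other 4 libraries, in which Xist was between 16973 and 19403. The sex of the mice is thus partly confounded with the genotype, and the values with WT replicate 3 as the sole WT library are given where they bear on a gene. The label of T lymphocyte was set against 6 T cell markers, whose summed level was between 14046 and 14619 in WT and between 13775 and 14126 in IRF1-deficient libraries. Of these, Cd3e passed the test and was lower by 0.30 on the log2 scale, at 1624 ± 42.9 (SD, n = 3) against 1317 ± 85.0 (SD, n = 3) (adjusted p = 0.00535 in limma), a call lost with WT replicate 3 as the sole WT library, at 0.134. Of 6 markers of CD8 T and NK cells, Klrb1c and Ncr1 were at 0 everywhere and the sum did not pass 46.7 in any library.

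Ctse encodes cathepsin E, an aspartic protease of endosomes that is found in immune cells and in the gut (ENSMUSG00000004552, GRCm38 chromosome 1, positions 131638306 to 131675505, + strand). Its normalized count was 438 in WT replicate 1, 417 in replicate 2 and 473 in replicate 3, against 25.1, 19.4 and 38.3 in the IRF1-deficient replicates in the same order. Every WT library was thus more than 10-fold above every IRF1-deficient library. The means were 443 ± 28.1 (SD, n = 3) and 27.6 ± 9.72 (SD, n = 3), which is 16.0-fold lower without IRF1, with a log2 difference of -4.01 (SE 0.205). Of the 11379 genes fitted, 11 had a lower log2 difference than Ctse.

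The reads behind these values were 351, 347 and 769 in WT and 21, 14 and 60 in IRF1-deficient libraries, so Ctse was low but counted in each of the 3 libraries without IRF1. Per kilobase of exon, the WT level reached 140 ± 8.85 (SD, n = 3), and the level without IRF1 averaged 8.71. Placed among 11327 genes with a known exon length, Ctse lay above 70.7% of them in WT cells and above 11.9% in IRF1-deficient cells. The log2 difference stayed between -4.26 and -3.62 over 19 other ways of computing it, and it was -4.10 when both WT libraries with Y-linked transcripts were left out. No other annotated gene overlapped Ctse, and the only gene within 100 kb that could be tested, Fam72a, had a log2 difference of -0.34, of the same sign as that of Ctse, with an adjusted p of 0.0583 in limma.

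Ctss encodes cathepsin S, a cysteine protease that stays active at near-neutral pH and carries out the last cuts of the invariant chain in antigen-presenting cells (ENSMUSG00000038642, chromosome 3 from 95526786 to 95556403 on the + strand). In WT cells it was at 559, 536 and 480 normalized counts, and in IRF1-deficient cells at 260, 275 and 226. The genotypes did not overlap, and the lowest WT library was well above the highest library without IRF1. The means were 525 ± 40.7 (SD, n = 3) and 253 ± 25.2 (SD, n = 3), a 2.07-fold lower level and a log2 difference of -1.05 (SE 0.0949). With 198 to 781 reads a library, Ctss was counted more deeply than Ctse in IRF1-deficient cells, and 154 genes had a lower log2 difference.

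The difference in Ctss was between -1.11 and -0.92 over the same 19 alternatives, and it came closest to 0 once the Y-linked level entered the fit. Ctss and Ctse thus had normalized counts of the same order in WT cells, and were far apart without IRF1. The tested genes around Ctss had differences of the opposite sign that did not pass the test. Within 100 kb, Arnt, Golph3l and Ensa were tested with limma and had adjusted p-values of 0.282, 0.387 and 0.112, with log2 differences of 0.13, 0.11 and 0.21. Ctsk, the cathepsin gene beside Ctss on chromosome 3, had 2 or 3 reads in every library. A processed pseudogene, Hmgb1-ps5, lies within Ctss and was at 4.25 in WT and 2.46 in IRF1-deficient cells on average.

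**Figure D1:**
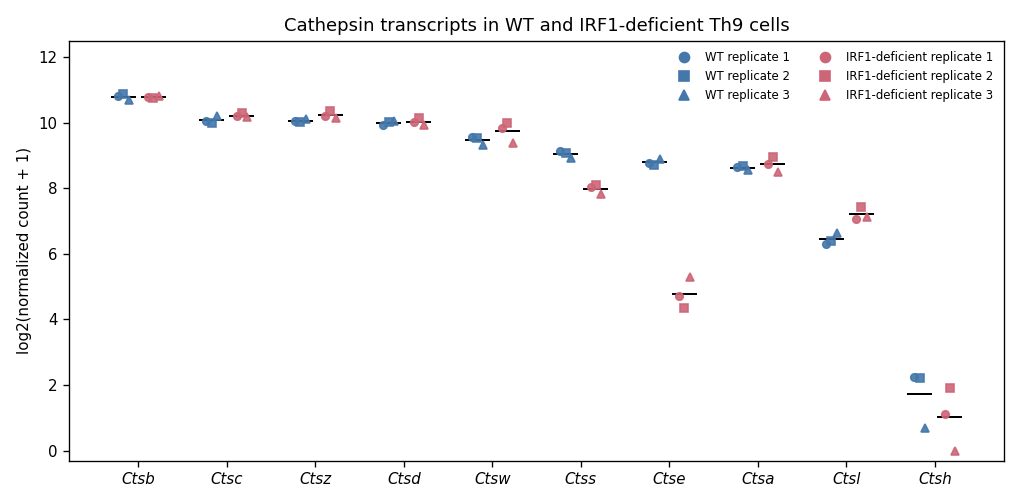
Level of the 10 cathepsin genes in 3 WT (blue) and 3 IRF1-deficient (red) libraries, as log2 of the normalized count plus 1, with a symbol for each library and black lines at the mean of the log2 values. The WT points of Ctse correspond to normalized counts of 417 to 473 and those without IRF1 to 19.4 to 38.3, Ctss and Ctsl are also split by genotype, and Ctsh lies at 3 reads or fewer.

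Ctsl encodes cathepsin L, a cysteine endopeptidase that in the thymic epithelium takes the role cathepsin S has in dendritic cells (ENSMUSG00000021477, chromosome 13 from 64359337 to 64370890 on the - strand). It was at 77.4, 83.0 and 98.4 normalized counts in WT and at 134, 172 and 139 in IRF1-deficient libraries. Its values did not overlap between the genotypes and lay in the opposite order to those of Ctse and Ctss. The means were 86.2 ± 10.9 (SD, n = 3) and 148 ± 20.8 (SD, n = 3), 1.72-fold higher without IRF1, with a log2 difference of 0.77 (SE 0.143). The difference fell to 0.66 without IRF1-deficient replicate 2, the library with the highest value, and to 0.58 with WT replicate 3 as the only WT library.

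The upstream sequences of Ctss, Ctsl and Ctsz show genes on either side of the genotype difference and one with a small difference. They are the 250 bases before the RefSeq transcription start on GRCm38.p6, printed in the direction of transcription, with capitals at each match to the IRF element AANNGAAA on either strand. The set of RefSeq windows used here covered 6 of the 10 members and held none for Ctse, Ctsb, Ctsh and Ctsw.
Ctss (chr3:95526536-95526785, + strand): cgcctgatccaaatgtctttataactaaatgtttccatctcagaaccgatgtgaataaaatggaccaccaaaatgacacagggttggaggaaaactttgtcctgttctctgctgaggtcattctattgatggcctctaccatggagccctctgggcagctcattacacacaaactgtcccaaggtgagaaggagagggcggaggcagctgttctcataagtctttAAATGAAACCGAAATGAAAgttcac
Ctsl (chr13:64370521-64370770, - strand): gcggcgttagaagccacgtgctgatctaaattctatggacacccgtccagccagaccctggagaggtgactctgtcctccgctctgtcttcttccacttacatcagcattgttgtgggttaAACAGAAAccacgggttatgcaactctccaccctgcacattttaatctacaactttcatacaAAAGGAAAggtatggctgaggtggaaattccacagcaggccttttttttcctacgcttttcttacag
Ctsz (chr2:174439040-174439289, - strand): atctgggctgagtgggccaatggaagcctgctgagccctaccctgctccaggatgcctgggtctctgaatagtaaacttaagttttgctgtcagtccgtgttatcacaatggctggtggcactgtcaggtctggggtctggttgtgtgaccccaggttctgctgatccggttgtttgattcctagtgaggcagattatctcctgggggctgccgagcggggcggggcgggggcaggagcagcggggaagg

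In Ctss, 3 overlapping matches formed a run from 25 to 7 bases before the start: AAATGAAA from 25 to 18, AACCGAAA from 19 to 12 and AAATGAAA from 14 to 7. With 1 more match on the opposite strand, in the 50 bases after the start, the whole window of 300 bases held 4. Of 32851 RefSeq windows of that length, 23.9% held at least 1 match and 1.123% held 3 or more, overlaps counted. Ctsl held 2 separate matches, from 129 to 122 and from 67 to 60 bases before its start, so matches were present at genes with opposite signs. The windows of Ctsz, Ctsc, Ctsd and Ctsa held none. A gamma-activated site, spelled TTCNNNGAA, which 8.30% of windows held, was found in Ctsc, and the E-box CACGTG, held by 7.15% of windows, was found in Ctsl, Ctsd and Ctsa. These are matches of letters, and binding was not measured here. The study did measure IRF1 binding in Th9 cells by ChIP-Seq, and those data were not used here.

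The other cysteine proteases of the lysosome differed little. Ctsb, the gene of cathepsin B, which cuts within proteins and from their ends, was at 1788, 1859 and 1654 in WT and at 1765, 1728 and 1784 in IRF1-deficient libraries. It had the highest normalized count of the 10 genes and a log2 difference of -0.01 (SE 0.0573). Ctsc, whose product removes dipeptides from granzyme precursors, was at 1052, 1015 and 1184 in WT and at 1182, 1243 and 1143 without IRF1. The groups of both genes overlapped. The log2 difference of Ctsc was 0.14 (SE 0.0692), and 0.01 against WT replicate 3 alone.

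Ctsz encodes cathepsin Z, a carboxypeptidase also called cathepsin X. Its values were 1054, 1036 and 1111 in WT and 1170, 1300 and 1130 in IRF1-deficient libraries, a log2 difference of 0.17 (SE 0.0660). The genotypes did not overlap, though WT replicate 3 and IRF1-deficient replicate 3 lay close together. Ctsw encodes cathepsin W, which is best known from NK and CD8 T cells. It was at 748, 741 and 640 in WT and at 906, 1024 and 664 in IRF1-deficient libraries, so both replicates 3 were the lowest of their genotype. The log2 difference was 0.27 (SE 0.134), and it moved from 0.13 without IRF1-deficient replicate 2 to 0.44 without IRF1-deficient replicate 3. Ctsw was therefore well expressed in libraries where the markers of CD8 T and NK cells were low or absent.

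Ctsd encodes cathepsin D, the main aspartic protease of lysosomes and, like cathepsin E, a relative of pepsin. It was at 980, 1040 and 1057 in WT and at 1043, 1119 and 975 in IRF1-deficient libraries, a log2 difference of 0.03 (SE 0.0660). Of the aspartic protease genes, Ctse thus had the largest difference of the members and Ctsd one below its SE. Ctsa encodes cathepsin A, a carboxypeptidase that also shields β-galactosidase and neuraminidase from degradation. Its values were 401, 405 and 379 in WT and 425, 490 and 361 without IRF1, a log2 difference of 0.10 (SE 0.104), which was 0.16 with WT replicate 3 as the sole WT library and 0.21 without IRF1-deficient replicate 3. With WT replicate 3 alone the difference was 0.09 for Ctsb, -0.02 for Ctsd, 0.11 for Ctsz and 0.41 for Ctsw.

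Ctsh, the gene of an aminopeptidase, was at or under 3 reads in each of the 6 libraries. The normalized counts were 3.74, 3.61 and 0.615 in WT and 1.19, 2.77 and 0 without IRF1. At this depth no difference was detectable, and it was not fitted.

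**Figure D2:**
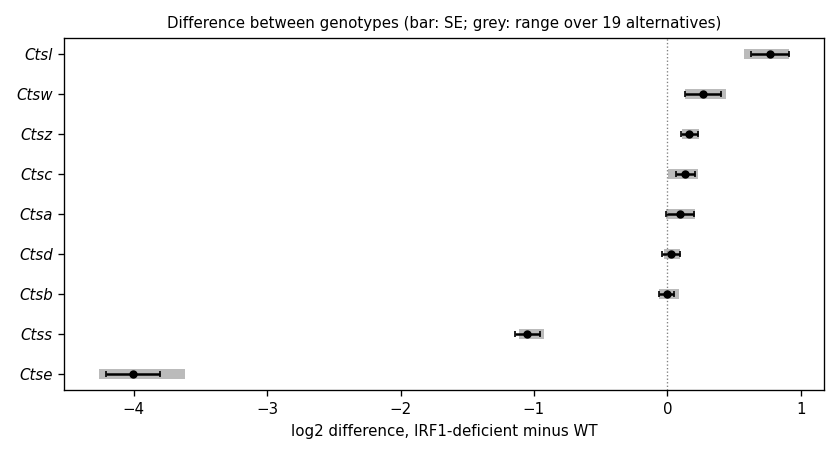
Log2 difference of IRF1-deficient over WT cells for the 9 fitted cathepsin genes, with black bars of 1 SE to either side and grey bars for the range over 19 alternatives. Ctse lies at -4.01, Ctss at -1.05 and Ctsl at 0.77, and the other 6 genes lie between -0.01 and 0.27.

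By limma's adjusted p of 0.05, 2 of the 9 fitted members were past the threshold and lower without IRF1, against 12.4% of all genes fitted. One, Ctsl, was past it and higher, against 11.4%, and together they are set against 23.7% of genes past it in either direction. For 4 of the 9 the genotypes did not overlap, as was so for 40.5% of all 11379 genes. Since the members were chosen with these values known, nothing is read from these counts. The median log2 difference of the 9 was 0.10, beside -0.00 over all genes fitted.

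Per kilobase of exon, Ctsz was the highest of the 10 in both genotypes, at 741 ± 27.2 (SD, n = 3) in WT cells. Below it in WT cells came Ctsd, then Ctss and Ctsw, which overlapped, then Ctsb, Ctsc, Ctse, Ctsa, Ctsl and Ctsh, with no other neighbours in this order overlapping. Without IRF1 the order was Ctsz, then Ctsw and Ctsd, which overlapped, then Ctsb, then Ctsc and Ctss, which also overlapped, then Ctsa, Ctsl, Ctse and Ctsh. Ctss had thus moved from among the highest to the level of Ctsc, and Ctse had moved below Ctsl. Each length joined the exons of all annotated transcripts, at 1441 bases for Ctsz with 1 transcript and 6489 for Ctsl with 7. The order of the genes and their shares of the sum thus depend in part on the annotation, while a gene's difference between genotypes does not.

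Summed per kilobase, the 10 genes reached 2669, 2662 and 2635 in WT and 2542, 2759 and 2318 in IRF1-deficient libraries, so the totals overlapped while their makeup differed. Ctse made up 5.26% ± 0.364 (SD, n = 3) of the sum in WT cells and 0.352% ± 0.154 (SD, n = 3) without IRF1. Ctss made up 14.6% ± 1.03 (SD, n = 3) and 7.34% ± 0.188 (SD, n = 3). Shares sum to the whole, so the lower shares of Ctse and Ctss raise those of the other genes even where the levels are close, as for Ctsb, whose level per kilobase averaged 292 and 291. Ctsz went from 27.9% to 32.8%, Ctsw from 14.2% to 17.9% and Ctsd from 16.4% to 17.5%.

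**Figure D3:**
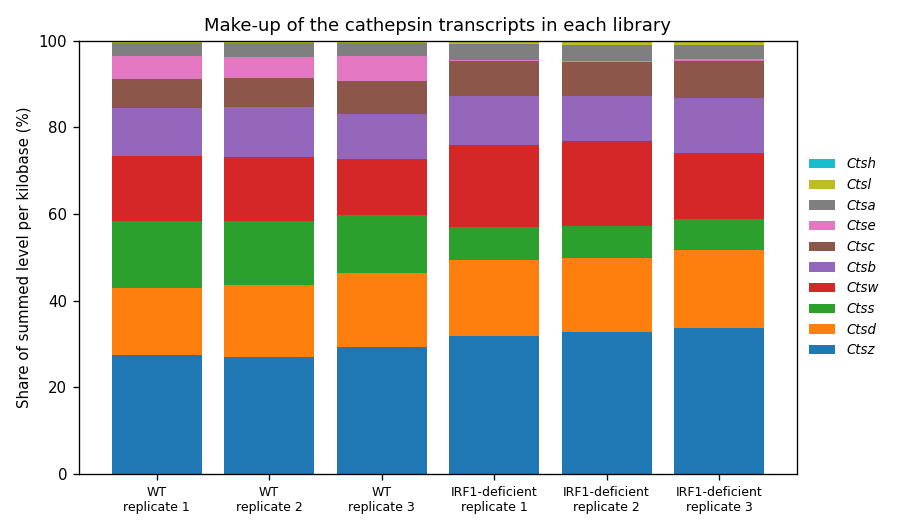
Share of each cathepsin gene in the summed level per kilobase of exon of the 10 genes, in percent, as stacked bars for each of the 6 libraries. Ctse makes up 4.94% to 5.66% of the sum in WT libraries and 0.222% to 0.522% in IRF1-deficient ones, and Ctsz is the largest share in all 6.

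In bulk RNA, a smaller number of cells that express a gene and less RNA of it in each cell cannot be told apart. This applies to Ctse and Ctss in particular, because antigen-presenting cells express both. The 8 myeloid markers summed to 54.9, 182 and 60.2 in WT and to 238, 1042 and 42.8 in IRF1-deficient libraries. They were thus highest in IRF1-deficient replicate 2, in which Lyz2 was at 559 and Cd14 at 334, and lowest in IRF1-deficient replicate 3. Ctse was lowest in the former, at 19.4, and Ctss was at 275 there and at 226 in the latter. The 6 dendritic cell markers summed to at most 47.4 in WT and 34.6 in IRF1-deficient libraries, and 5 of the 6 stayed at or under 3 reads everywhere. The 6 B cell markers summed to 612 to 827 in WT and 449 to 536 in IRF1-deficient libraries, mostly from Ighm, with Pax5 at 0 in all 6. Ighm was lower without IRF1 by 0.54 on the log2 scale (adjusted p = 0.00870 in limma), a call lost in limma without a trend, at 0.0569. Without IRF1-deficient replicate 2 the log2 difference was -3.79 for Ctse and -1.11 for Ctss. Ctsl, Ctsc, Ctsz, Ctsw, Ctsd and Ctsa had their highest IRF1-deficient value in replicate 2 as well, and without it their log2 differences were 0.66, 0.10, 0.11, 0.13, -0.02 and -0.01. The part of myeloid and B cells in these differences was not tested.

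Several members overlap another gene model by position, and the sources used here do not state whether counting used strand. Ctsb overlaps Fdft1, Ctsw overlaps Fibp, Ctsz overlaps Nelfcd, and Ctsa overlaps Neurl2 and Pltp, all on the opposite strand. Ctsc overlaps Gm26522 and Ctsl overlaps Gm47123, also on the opposite strand, while Ctsd overlaps Gm49369 and Ctsl the pseudogene Gm49230 on their own strand. Gm47123, Gm49369 and Gm49230 are not among the counted genes, so no reads were assigned to them. The values of the overlapping members are uncertain to the extent of such overlaps.

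The genes with the pattern most like that of Ctse were sought among 8422 genes whose higher group averaged 100 or more, by the distance between log2 values centred on each gene's mean over the 6 libraries. The nearest was Pla2g16, a phospholipase gene, at a distance of 0.576, which averaged 175 ± 28.8 (SD, n = 3) in WT cells against 13.4 ± 3.34 (SD, n = 3) without IRF1. Next came Gm43302 at 0.780, Serpinb9, a granzyme B inhibitor gene, at 0.840, the guanylate-binding protein gene Gbp2b at 0.876, and Il12a, which encodes a subunit of IL-12, at 1.11. Their log2 differences were between -3.74 and -3.33, all smaller in size than that of Ctse.

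For Ctss the nearest gene was Ccng1, a cyclin G gene, at a distance of 0.191, with log2 difference -1.17. Slain1 followed at 0.194, the interferon-inducible GTPase gene Igtp at 0.204, Sp140 at 0.224 and Psme2, which encodes a subunit of the proteasome activator, also at 0.224. Igtp averaged 3543 ± 261 (SD, n = 3) in WT cells against 1851 ± 116 (SD, n = 3) without IRF1. The neighbours of Ctss by pattern lay on chromosomes 1, 11 and 14, and no gene was on both lists.

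The remaining cathepsin genes were largely silent. Of 15 further genes of the family and legumain, 10 were at 0 in all 6 libraries and 1 was tested. That gene, Lgmn, encodes the asparaginyl endopeptidase legumain, which trims other cathepsins. It was at 54.9, 57.7 and 58.4 in WT and at 89.5, 95.7 and 72.9 in IRF1-deficient libraries, a log2 difference of 0.58 (adjusted p = 0.0202 in limma), and it lost its call in 7 of 19 alternatives, with adjusted p-values from 0.00316 to 0.196. Leaving out replicate 1 or 2 of either genotype ended it, at adjusted p-values in limma of 0.0565 to 0.0856. Among IRF1-deficient libraries, Lgmn was highest in replicate 2 and lowest in replicate 3, as the summed myeloid markers were. Of the 19 genes outside the members that were called higher in these lists, 4 had this order, Lgmn, Cstb, Arsa and Dnase2a, and the part of myeloid cells in their differences was not tested. Ctsf, below the level needed for a test, had 2, 2 and 4 reads in WT and 10, 7 and 7 in IRF1-deficient libraries. Ctso had 11, 5 and 10 reads in WT and 5, 3 and 14 without IRF1.

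Of 12 inhibitors of cathepsins, 7 were tested, 4 were higher and 0 lower in limma, beside 11.4% higher and 12.4% lower of all genes, and 5 did not reach the level for a test. At an unadjusted p below 0.05, which 17.8% of all genes passed as higher and 18.9% as lower, the counts were 6 and 0, and edgeR and DESeq2 also called 0 lower. The median log2 difference was 0.44. The largest difference was that of Ctla2a, a T cell gene whose product resembles the propeptide of cathepsin L and inhibits it. Its normalized counts were 86.1, 114 and 136 in WT and 475, 556 and 539 in IRF1-deficient libraries, 4.66-fold higher, with a log2 difference of 2.23 (SE 0.148, adjusted p = 5.46e-06 in limma). Ctla2b, its close copy, was at 15.9 ± 2.18 (SD, n = 3) and 71.5 ± 6.77 (SD, n = 3), with a log2 difference of 2.10 (adjusted p = 6.49e-05 in limma). The sequences of Ctla2a and Ctla2b are so alike that reads may have been shared or lost between them, and each value is uncertain to that extent.

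Cstb, which encodes stefin B, an inhibitor in the cytosol, rose from 198 ± 12.8 (SD, n = 3) to 269 ± 16.1 (SD, n = 3), a log2 difference of 0.44 (adjusted p = 0.00694 in limma). Cst3, which encodes the secreted inhibitor cystatin C, rose from 241 ± 17.1 (SD, n = 3) to 304 ± 14.1 (SD, n = 3), a difference of 0.33 (adjusted p = 0.0203 in limma) that was lost in 7 of 19 alternatives, with adjusted p-values from 7.74e-04 to 0.329, including each fit without replicate 1 or 2 of either genotype, at 0.0646 to 0.0861. The pair of Ctla2 genes kept the call in every alternative that gave them a value, 19 for Ctla2a and 18 for Ctla2b. Cstb lost it only with WT replicate 3 as the sole WT library, at an adjusted p of 0.0589.

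**Figure D4:**
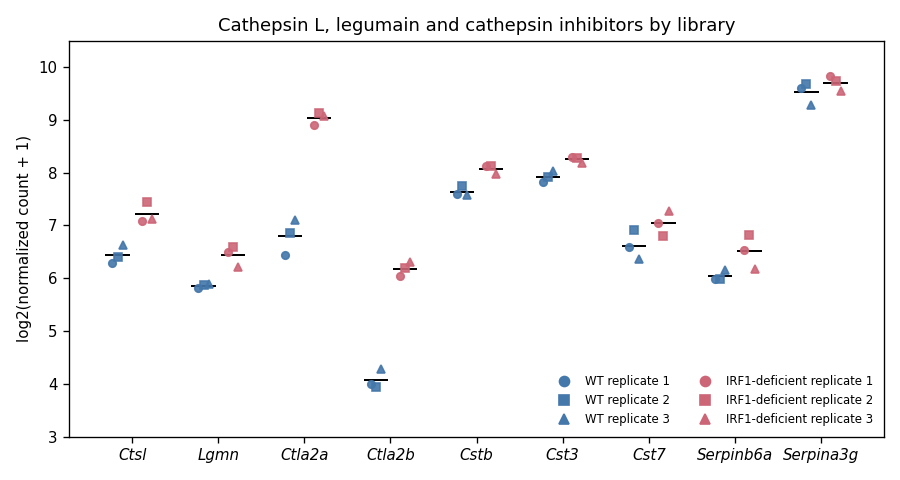
Level of Ctsl, Lgmn and the 7 tested cathepsin inhibitor genes in WT (blue) and IRF1-deficient (red) libraries, as log2 of the normalized count plus 1 on an axis that starts at 3, with black lines at the mean of the log2 values. The points of Ctla2a correspond to normalized counts of 86.1 to 136 in WT and 475 to 556 in IRF1-deficient libraries, and no library of one genotype reaches the other for Ctla2a or Ctla2b.

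Among 13 substrates and partners of cathepsins, 8 were tested, and 1 was higher, near the 11.4% of all genes, and 0 lower in limma, or 3 and 0 at an unadjusted p below 0.05, beside 17.8% and 18.9% of all genes. In edgeR and in DESeq2 the counts were likewise 1 and 0. Cd74, the gene of the invariant chain that cathepsin S cuts, was at 308, 322 and 363 in WT and at 464, 551 and 526 in IRF1-deficient libraries. Among the latter, Cd74 was highest in replicate 2, as the summed myeloid markers were, but lowest in replicate 1. The part of myeloid cells in its difference was not tested. Its log2 difference was 0.63 (adjusted p = 8.47e-04 in limma) and held in all 19 alternatives, so Cd74 was higher where Ctss was lower. Gzmb, a substrate of cathepsin C, was at 102, 111 and 266 in WT and at 187, 244 and 621 in IRF1-deficient libraries and did not pass the test (adjusted p = 0.0950 in limma). Replicate 3 was the highest library of both genotypes, and without both of these libraries the adjusted p of Gzmb was 2.64e-08 in limma.

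Of 17 genes that mark lysosomal enzymes or carry them from the Golgi, all were tested, 3 were lower and 1 was higher, about the 23.7% called of all genes, with a median log2 difference of -0.13. Gnptab, which encodes the enzyme that starts the mannose 6-phosphate mark, fell from 725 ± 73.2 (SD, n = 3) to 493 ± 24.1 (SD, n = 3) (adjusted p = 0.00118 in limma). Ap1g1, which encodes a subunit of the AP-1 adaptor of the Golgi, fell from 1156 ± 32.9 (SD, n = 3) to 898 ± 50.4 (SD, n = 3) (adjusted p = 0.00216 in limma). Both calls held in all 19 alternatives. Igf2r, the gene of the large mannose 6-phosphate receptor, was lower by 0.30 on the log2 scale, and Gga1, which encodes a sorting adaptor, was higher by 0.23, at adjusted p-values of 0.0311 and 0.0362 in limma. These 2 calls were lost in 8 and 9 of 19 alternatives, with adjusted p-values of up to 0.233 and 0.347. Leaving out replicate 1 or 2 of either genotype ended the call of Igf2r, at 0.0890 to 0.125 in limma, and leaving out WT replicate 1 or 2 or IRF1-deficient replicate 1 or 3 ended that of Gga1, at 0.0525 to 0.143.

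Of 33 other lysosomal hydrolases and their helpers, all were tested, 8 were higher and 2 lower, beside 11.4% higher and 12.4% lower of all genes, with a median log2 difference of 0.19. Dnase2a, the gene of the lysosomal DNase, had the largest difference at 0.87 (adjusted p = 0.00466 in limma). Ppt1, which encodes the thioesterase that removes palmitate from proteins, rose from 441 ± 22.4 (SD, n = 3) to 716 ± 57.4 (SD, n = 3) (adjusted p = 1.80e-04 in limma). Smpd1, the acid sphingomyelinase gene, was higher by 0.49, a call lost with WT replicate 3 as the sole WT library (adjusted p = 0.0834 in limma), and Gm2a, the gene of the GM2 activator, by 0.48. Arsa, the gene of arylsulfatase A, was higher by 0.38, a call lost in 10 of 19 alternatives, with adjusted p-values of up to 0.220, and without any one library but IRF1-deficient replicate 3, at 0.0669 to 0.127 in limma. Npc2, whose product carries cholesterol, and Ids, a sulfatase gene, were the 2 lower genes, at -0.37 and -0.33 on the log2 scale, and Ids lost its call without replicate 1 or 2 of either genotype, at 0.0685 to 0.117 in limma. Dnase2a, Ppt1, Gm2a and Npc2 kept their calls in all 19 alternatives.

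Of 28 genes of the lysosomal membrane and proton pump, 27 were tested, 4 were higher and 2 lower, near the 23.7% called of all genes, with a median log2 difference of 0.05. The higher ones were Laptm4b, Cln3, Atp6v0a1 and Atp6v1g1, and the lower ones were Tmem192 and Atp6v1a, and each lost its call in at least 2 of 19 alternatives. Their adjusted p-values ranged from 0.0105 to 0.0286 in limma and rose to at most 0.386 in an alternative. Leaving out WT replicate 1 ended all 6 calls, with the lowest p at 0.0529 for Tmem192, and Tmem192 lost its call to no other single library. Among 8 regulators of lysosomal genes, 0 passed the adjusted threshold in limma, and 0 in edgeR and DESeq2, with a median log2 difference of -0.01. At an unadjusted p below 0.05, 1 was lower and 1 higher, beside 36.7% of all genes in either direction.

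**Figure D5:**
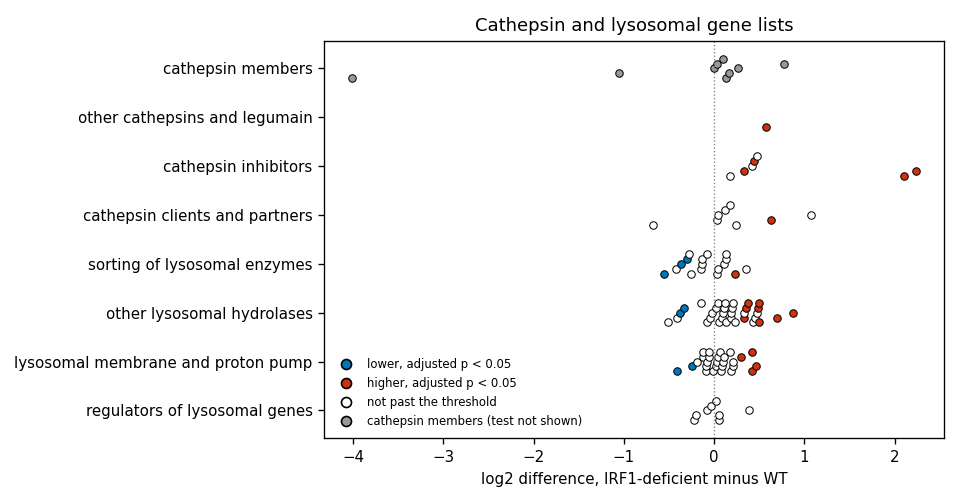
Log2 difference of IRF1-deficient over WT cells for each tested gene of the cathepsin set and of 7 related lists, with blue (lower) and red (higher) points for genes past the threshold of limma's adjusted p, open points for the others and grey points for the cathepsin members, for which no test is shown. Ctse at -4.01 and Ctla2a at 2.23 are the lowest and the highest points.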

How the data were processed

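RNA-Seq of 3 WT and 3 IRF1-deficient mouse Th9 cultures was analysed. The deposited signal is a normalized count, which the authors made by aligning single-end reads to GRCm38 with STAR 2.4.0b, counting them on Ensembl genes with featureCounts and dividing each library by a DESeq2 1.12.3 size factor. Per the labels and the paper, RNA isolation and read length were described differently, and strand was not given in the sources used here. The values were whole multiples of 1 step for 100% of non-zero values (tolerance 0.01), so whole reads were recovered.

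Genes with a mean of at least 10 were fitted with limma 3.58.1 in R 4.3.3, by eBayes with a trend on log2 of the normalized count plus 1, with Benjamini-Hochberg adjustment over 11379 genes and a threshold of 0.05. A floor of 3 reads was used only to describe low genes, and no fit filtered on it. The paper describes the samples as independent, while the labels name no animals, so p-values measure only the spread between these samples. Exon lengths, joined over all transcripts of a gene, came from GENCODE annotation of GRCm38 and upstream sequences from RefSeq, GRCm38.p6. Symbols were matched for 40254 of 41388 genes. The script was tested on simulated data.

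The members and lists were chosen with earlier results of these data known. Of each list, called genes whose higher group averaged 100 or more were named, up to the 6 with the largest differences, or all where a list had 5 or fewer, and for Ctse and Ctss the 5 nearest genes by centred log2 distance. Laptm4b, Npc2 and Ids were named after their values were seen. One gene that met this rule is not reported here. As alternatives, the pseudocount was set to 0.1 or 10, the filter was dropped or raised to 50, TMM or quantile scaling was used, the trend was removed, a replicate block was added, and the fit was repeated with edgeR 4.0.16 and DESeq2 1.42.0 on recovered reads, the Y-linked level as covariate, each library left out, both WT libraries with Y-linked transcripts left out, and replicate 3 of both genotypes left out.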

Additional observations from a re-analysis of the deposited data

How the results depend on the processing

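Of the 26 genes of the cathepsin and lysosome lists, members and cell type markers aside, that passed the threshold, 9 kept the call in every one of the 19 alternatives that gave a value and 0 changed sign. With Y-linked expression as a covariate 13 kept it, and with both WT libraries with Y-linked transcripts left out, which leaves 1 WT sample assumed to vary like the others, 9 kept it. Ctsh and some other family genes had too few reads for a test, and 10 others had none.

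Counts of genes past the threshold that moved by more than 1.5 times are listed next. The share of all genes called under each of these settings is not given, so nothing is read from these counts. Cathepsin members higher (1) became 2 with quantile normalization, 0 without both WT libraries with Y-linked transcripts and 4 with replicate 3 of both genotypes left out, and ranged from 1 to 3 with each library left out. Other cathepsins higher (1) became 2 without the filter, 0 in DESeq2, 0 with the Y covariate and 0 without both WT libraries, and ranged from 0 to 1. Inhibitors higher (4) became 2 without both WT libraries and ranged from 3 to 5. Clients became 1 lower without a trend and 4 higher without replicate 3, and the higher ones ranged from 1 to 3. Sorting genes lower (3) ranged from 2 to 4, and those higher (1) became 0 without the filter, without a trend, in DESeq2, with the Y covariate and without both WT libraries, became 4 without replicate 3, and ranged from 0 to 2. Hydrolases lower (2) became 1 without a trend, in DESeq2, with the Y covariate and without both WT libraries, and ranged from 1 to 3, while those higher (8) became 5 with the Y covariate and 4 without both WT libraries, and ranged from 5 to 9. Membrane genes lower (2) became 1 with quantile normalization, without a trend and with the Y covariate and 0 without both WT libraries, and ranged from 0 to 2, while those higher (4) became 2 in DESeq2, 1 with the Y covariate and 0 without both WT libraries, and ranged from 0 to 5. Regulators became 1 lower and 1 higher without replicate 3, and both ranged from 0 to 1. Fits with libraries left out held fewer samples, and the cause of these moves was not tested.

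With the replicate block, the counts became 3 members higher, 7 inhibitors higher, 4 clients higher, 7 sorting genes lower and 2 higher, 4 hydrolases lower, 7 membrane genes higher, and 1 regulator lower and 1 higher, and all 26 calls were kept. Of all genes 35.2% were called with the block, 18.6% lower and 16.6% higher. Deviations of same-numbered libraries correlated at 0.09, 0.27 and 0.32 for replicates 1, 2 and 3, so not every pair passed the 0.1 set for treating the numbers as a pairing, although each library correlated best with its own number, a hint from the data. Both replicates 3 also had the largest libraries. Gzmb, which did not pass the test, had an adjusted p of 3.15e-08 in limma with the replicate block.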

Other observations

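Within 100 kb of the 10 cathepsin genes, 39 pairs of a cathepsin gene and a tested neighbour were found, of which 1 was lower and 6 were higher in IRF1-deficient cells at an adjusted p below 0.05 in limma, beside 12.4% lower and 11.4% higher of all genes. The lower gene was Lsp1, which encodes an actin-binding protein of leukocytes and lies near Ctsd. It averaged 1159 ± 33.8 (SD, n = 3) in WT cells against 876 ± 33.7 (SD, n = 3) without IRF1 (adjusted p = 8.47e-04 in limma). Fosl1, an AP-1 transcription factor gene near Ctsw, rose from 58.4 ± 7.18 (SD, n = 3) to 95.5 ± 6.65 (SD, n = 3) (adjusted p = 0.00683 in limma). Snx21 and Zswim3, near Ctsa, were higher by 0.71 and 0.59 on the log2 scale, and Aaed1, near Ctsl, by 0.64. The other 2 were Drap1, near Ctsw, at 0.34, and Fdft1, which overlaps Ctsb and encodes squalene synthase, at 0.29. All 7 calls were lost with WT replicate 3 as the sole WT library, and those of Zswim3, Aaed1 and Drap1 were lost in 11, 8 and 4 of 19 alternatives, with adjusted p-values of up to 0.496, 0.228 and 0.199 in limma. Leaving out WT replicate 2 ended each of these 3 calls. These genes were named after their values were seen.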
